A study of Mus musculus with 34 samples.

Results

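Interferon response genes are genes that interferon is known to induce in mouse cells. A list of 36 was drawn up by gene name from general knowledge of the pathway. The rule uses no measured difference between groups, but the list was chosen with earlier results of these data known. No count over it is therefore independent support. Of the 36 genes, 34 had a probe set that carried no other gene symbol, out of 18193 genes measured that way on the array. For a gene with several such probe sets, the brightest by mean signal over the 34 arrays stood for the gene. The other members, Isg15 and Ifi44, were not analysed here. Of the 34 measured members, 33 were bright enough to be tested among 13099 genes. The exception was Mx2, a dynamin-like antiviral GTPase, whose signal lay between 6.9 and 26.8 over the 34 arrays, under the filter on mean signal at 52.5.

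The study profiled mouse liver RNA in 34 samples of 7 groups, each hybridised to its own Affymetrix Mouse Genome 430 2.0 array. Wild-type C57/B6 mice without a transgene, on the basal diet, gave 5 livers at week 20 and 4 livers at week 48. Pdgf-c Tg mice, which carry a transgene for platelet-derived growth factor C, gave 5 livers on the basal diet at each age and 5 tumours at week 48 that are also labelled as liver. Further Pdgf-c Tg mice, 5 at each age, were fed 0.06% of the acyclic retinoid peretinoin in the diet after weaning at week 4. Week 20 was chosen for the progression of fibrosis and week 48 for tumours. The diet was given to no wild-type group used here, so its comparisons are within transgenic mice. The promoter of the transgene, the number of founder lines and whether any tumour shares its mouse with one of the livers are not given in the sources used here. Nor do the labels say that replicates of a group came from separate animals, so the p-values measure the spread between these samples, which may in part be technical.

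The arrays were scaled to a common trimmed mean of 500, and their median signals ran from 71.5 to 95.7. Their number in each group, and not a read depth, limits the precision. Hepatocyte markers were bright in all groups, with a summed signal of 8 markers between 147524 and 244582, so the tissue label fits the signals. Pdgfc itself gave 336 ± 56.5 (SD, n = 5) in wild-type and 316 ± 72.1 (n = 5) in transgenic liver at week 20, and 482 ± 26.4 (n = 4) and 798 ± 277 (n = 5) at week 48. Whether its probe set reads the transgene is not given, so this is no check of the labels. The summed signal of 9 stellate cell and myofibroblast markers, by contrast, was 2783 to 6145 in week 20 wild-type livers and 19317 to 24918 in transgenic livers of that age. Skeletal muscle or pancreatic acinar transcripts stood at least 3 log2 units above the median array on 6 arrays: replicate 4 of the week 48 wild type, replicate 5 of the week 20 and replicate 4 of the week 48 transgenic group, replicates 3 and 5 of the week 20 and replicate 1 of the week 48 peretinoin group. In bulk tissue, fewer cells of a type and less RNA per cell cannot be told apart.

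Interferons are cytokines that cells release on sensing viral nucleic acid or other danger signals. Type I interferon signals through a receptor and JAK kinases to a transcription factor complex that contains STAT2 and IRF9 and binds interferon-stimulated response elements. Interferon gamma, made mainly by T and NK cells, acts on gamma-activated sites. In liver the targets are expressed by hepatocytes as well as by macrophages, endothelium and other cells. Many members answer to both kinds of interferon, and guanylate-binding proteins, immunity-related GTPases, Cxcl9, Irf1 and the immunoproteasome genes are known for strong induction by interferon gamma.

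The members sit in clusters on the chromosomes. No other protein-coding gene lies between Rsad2 and Cmpk2, between Psmb9, Tap1 and Psmb8, between Ifit2 and Ifit3, between Gbp7 and Gbp3, or between Oasl2 and Oasl1 in RefSeq's GRCm38.p6 annotation, and neighbours are therefore not independent observations. Promoter windows from 250 bases before to 50 bases after the start site, from RefSeq on GRCm38.p6, were matched by symbol for 28 of the 36 members. They were searched on both strands for an element of the interferon-stimulated kind, GAAA followed by any 2 bases and GAAA, and for an element of the gamma-activated kind, TTCNNNGAA. The response element was present for 13 of the 28 members (46.4%), against 3.99% of all 27025 genes with a window. The gamma-activated element was present for 7 (25.0%), against 9.55% of genes. Both were present for 3 members and neither for 11. A match is a description of letters and not a bound site.

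The 250 bases before the start site are printed 5′ to 3′ for 5 members, all on the plus strand, because they set the members whose signals in transgenic liver were most clearly raised beside members with such elements that did not pass the test. Capitals mark matches to either motif. Gbp2 rose at both ages and has a response element, read on the opposite strand, that starts 59 bases before the start site. Oasl2, which also rose at both ages, and Tap1, which rose at week 20, have no match in the window. Ifit1 has response elements at 104 and 85 bases, and Igtp has one at 34 bases beside a gamma-activated element at 45 bases, and neither gene passed the test for the transgene at either age.
Gbp2, chr3:142620413-142620662: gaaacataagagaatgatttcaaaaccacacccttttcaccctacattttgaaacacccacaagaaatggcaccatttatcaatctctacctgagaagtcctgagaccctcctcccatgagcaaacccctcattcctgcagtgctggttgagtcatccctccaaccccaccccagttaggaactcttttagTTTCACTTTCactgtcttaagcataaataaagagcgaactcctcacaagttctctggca
Oasl2, chr5:114896684-114896933: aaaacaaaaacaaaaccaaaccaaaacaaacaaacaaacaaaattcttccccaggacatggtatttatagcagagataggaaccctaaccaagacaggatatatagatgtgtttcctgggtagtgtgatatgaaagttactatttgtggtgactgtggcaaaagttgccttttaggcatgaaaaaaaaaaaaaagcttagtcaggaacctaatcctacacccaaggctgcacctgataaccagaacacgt
Tap1, chr17:34187306-34187555: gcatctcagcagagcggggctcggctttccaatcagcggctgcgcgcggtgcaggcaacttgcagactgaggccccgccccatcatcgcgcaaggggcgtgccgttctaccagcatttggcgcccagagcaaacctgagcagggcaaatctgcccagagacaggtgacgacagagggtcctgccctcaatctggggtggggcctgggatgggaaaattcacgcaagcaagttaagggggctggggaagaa
Ifit1, chr19:34640639-34640888: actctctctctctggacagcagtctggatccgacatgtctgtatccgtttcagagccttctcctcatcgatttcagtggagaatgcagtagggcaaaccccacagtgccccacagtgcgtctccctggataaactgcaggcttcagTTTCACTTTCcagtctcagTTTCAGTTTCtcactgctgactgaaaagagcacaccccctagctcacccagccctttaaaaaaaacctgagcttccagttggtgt
Igtp, chr11:58199306-58199555: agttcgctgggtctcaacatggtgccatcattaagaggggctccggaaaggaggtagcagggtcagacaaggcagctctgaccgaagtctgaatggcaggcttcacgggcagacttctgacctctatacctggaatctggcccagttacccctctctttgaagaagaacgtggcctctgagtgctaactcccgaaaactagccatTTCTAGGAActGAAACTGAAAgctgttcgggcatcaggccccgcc

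Among the 9 members that rose in transgenic liver at 1 or both ages, 6 had a window. Of these, 2 held a response element (Gbp2 and Gbp3), 1 a gamma-activated element (Ifit2, at 241 bases) and 3 neither. Among the 4 members that fell at week 20, 2 had a window: Bst2 with both elements and Ifi35 with the gamma-activated one. Of the 21 measured members called in neither direction for the transgene, among them the untested Mx2, 18 had a window, 9 held a response element and 4 a gamma-activated one. The elements were thus not more frequent in the windows of members that rose than in those of members that did not pass, in sets too small to compare further. Tap1 and Psmb9 are read in opposite directions from windows that share 275 bases. At week 20 Tap1 passed the test and Psmb9 did not, but both changes were upward and the difference between them was not tested.

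**Figure D1:**
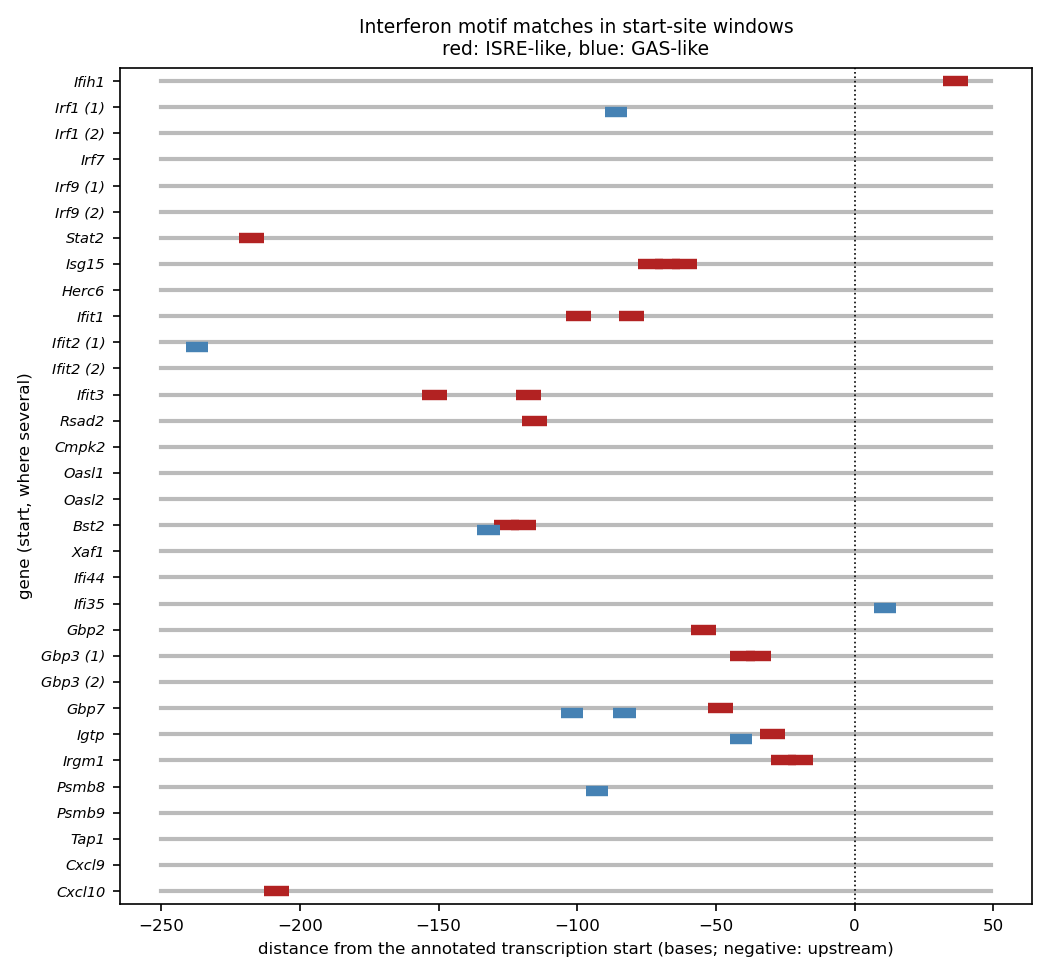
Matches to the 2 motifs in the promoter windows of the members, by distance from the start site in bases. Red marks the response element and blue the gamma-activated element, on either strand; 13 of 28 members with a window hold the first and 7 the second.

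In transgenic liver at week 20, the fibrosis stage, 6 members rose, 4 fell and 23 did not pass the test. Those that rose were the antiviral effectors Oasl2 and Ifit2, the guanylate-binding proteins Gbp2 and Gbp3, the ISG15 protease Usp18 and the peptide transporter Tap1. Those that fell were the effectors Bst2 and Ifi35 and the GTPases Gbp6, on only 1 of its 2 probe sets, and Iigp1. The 10 calls are 30.3% of the 33 tested members, against 23.7% of all 13099 genes (15.8% higher and 7.87% lower), so the share called was close to that of the liver transcriptome in this comparison. The members' median log2 change was 0.20 against 0.06 for all genes, and 23 of 33 changes lay above 0 against 56.4% of all genes. Changes are differences of log2(signal + 16) with limma's standard errors, which understate the change of dim genes, and a call is a Benjamini-Hochberg adjusted p under 0.05 over all genes tested.

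Among antiviral effectors, 2 of 12 tested members rose and 2 fell. Oasl2, a protein of the oligoadenylate synthetase family, gave signals of 165, 196, 127.2, 214.3 and 147.8 in wild-type livers and 654, 393.3, 447, 450.4 and 542.6 in transgenic livers. Every transgenic liver lay above every wild-type liver, and Oasl2 rose 2.76-fold (log2 1.46 ± 0.21, adjusted p = 2.79e-06). Ifit2, a tetratricopeptide protein that restrains viral RNA translation, gave 100.5, 188.4, 49.2, 112.7 and 140.5 in wild-type and 315.7, 143.5, 278.6, 163.6 and 190.7 in transgenic livers. Wild-type replicate 2 lay above transgenic replicates 2 and 4, the other wild-type livers lay below all transgenic livers, and Ifit2 rose by 0.84 ± 0.28 (adjusted p = 0.0271). The Ifit2 call was lost without replicate 3 of the wild type (0.61, adjusted p = 0.119) and without replicates 1 and 3 of the transgenic group (0.70 and 0.74, adjusted p = 0.091 and 0.0756). It was also lost after quantile normalization (0.67, adjusted p = 0.0771) and with only the arrays compared in the fit (0.84, adjusted p = 0.0574).

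Bst2, or tetherin, which holds budding virus at the cell surface, gave 3884.5, 2896.8, 4169.6, 3916 and 3656 in wild-type and 2669.3, 2583.9, 2829.5, 2761.8 and 3378.9 in transgenic livers. Wild-type replicate 2 lay inside the transgenic range, the other wild-type livers above it, and Bst2 fell by 0.37 on the log2 scale (SE 0.11, adjusted p = 0.015). Ifi35, an interferon-induced leucine zipper protein, gave 3968.1, 3272, 5332.2, 5313.6 and 5526.8 in wild-type and 3402.7, 2818.2, 3322.6, 3100 and 4589.8 in transgenic livers. The ranges overlapped, and the log2 change of Ifi35 was -0.43 ± 0.13 (adjusted p = 0.0169). Without replicates 3, 4 or 5 of the wild type or replicate 2 of the transgenic group, Ifi35 missed the threshold at adjusted p between 0.0545 and 0.0622, as it did with only the arrays compared in the fit (adjusted p = 0.08), and its other probe sets gave -0.39 and -0.16 (adjusted p = 0.0693 and 0.376).

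The other 8 effectors did not pass at week 20. The RNA-binding protein Ifit1 gave 412.5, 334.3, 272.4, 336.1 and 378.4 in wild-type and 643.5, 314.3, 352.8, 420.3 and 444.8 in transgenic livers, with 1 transgenic value, replicate 1, far above the others (log2 0.29 ± 0.20, adjusted p = 0.321). Rsad2, or viperin, stood at 0.69 ± 0.26, adjusted p = 0.0523. Of the other probe sets of Rsad2, 1 passed (0.87, adjusted p = 0.0098) and 1 did not (0.76, adjusted p = 0.0963). Mx1, a dynamin-like GTPase, had a change of 0.36 ± 0.21, Xaf1, a partner of the apoptosis inhibitor XIAP, 0.31 ± 0.15, and Ifit3, the partner of Ifit1, 0.22 ± 0.21. Cmpk2, a mitochondrial nucleotide kinase, Oasl1, the neighbour of Oasl2, and Parp14, an ADP-ribosyltransferase, lay between -0.042 and 0.055.

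The 7 interferon-inducible GTPases split in direction, with 2 higher, 2 lower and 3 not passing. Gbp2 gave 296.3, 423.8, 110.2, 204.8 and 233.1 in wild-type and 1090.1, 429.7, 1012.5, 622.4 and 625.5 in transgenic livers. The lowest transgenic liver, replicate 2, lay just above the highest wild-type liver, also replicate 2, and Gbp2 rose 2.94-fold (log2 1.55 ± 0.32, adjusted p = 0.000516). A second Gbp2 probe set gave 1.66 (adjusted p = 0.000754). Gbp3 gave 240.8, 374.6, 213.8, 257.5 and 265.7 in wild-type and 550.8, 317.2, 543.9, 414.9 and 396.2 in transgenic livers. Wild-type replicate 2 overlapped with the lowest transgenic liver, replicate 2, and Gbp3 rose by 0.68 ± 0.22 (adjusted p = 0.0213). Without wild-type replicate 3 or transgenic replicates 1 or 3 the change of Gbp3 was 0.61, 0.60 and 0.60 (adjusted p = 0.06, 0.0655 and 0.0628), and after quantile normalization it was 0.47 (adjusted p = 0.11), each without a call.

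Gbp6 gave 798.7, 619.2, 461.2, 446.9 and 725.5 in wild-type and 407.4, 206.2, 558.3, 316.7 and 417.9 in transgenic livers. The groups overlapped, with transgenic replicate 2 the lowest of all 10, and Gbp6 fell by 0.69 on the log2 scale (SE 0.23, adjusted p = 0.0289). Its second probe set, about as bright at a mean signal of 486 against 487, stood at 0.058 (adjusted p = 0.914), so the fall rests on the choice of probe set. The Gbp6 call was lost without wild-type replicates 1 or 5 or transgenic replicates 2 or 4 (adjusted p from 0.0632 to 0.125), with only the arrays compared in the fit (adjusted p = 0.057) and with the mean of its probe sets (-0.32, adjusted p = 0.386). Iigp1, an immunity-related GTPase that attacks vacuoles of intracellular parasites, gave 18520.2, 19472.6, 17471.3, 17109.8 and 20140.8 in wild-type and 14077.9, 9728.1, 15712, 13833.7 and 15160.4 in transgenic livers. All transgenic livers lay below all wild-type livers, and Iigp1 fell by 0.45 (SE 0.15, adjusted p = 0.0295). Without transgenic replicate 2 the change of Iigp1 was -0.33 (adjusted p = 0.122), and without wild-type replicate 5 it was -0.42 (adjusted p = 0.0686). After quantile normalization it was -0.21 (adjusted p = 0.326), and a second Iigp1 probe set gave -0.44 (adjusted p = 0.0862).

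Igtp, a GTPase of the same family that guards against vacuolar pathogens, gave 2145.9, 2086.8, 1448.5, 1807.2 and 2052.4 in wild-type and 3107.4, 1476.4, 3027.8, 1539.9 and 2226.3 in transgenic livers. Transgenic replicates 1, 3 and 5 exceeded all wild-type livers while replicates 2 and 4 lay near the lowest, and the log2 change was 0.20 ± 0.20 (adjusted p = 0.525). Irgm1, a regulator of these GTPases, had a change of -0.28 ± 0.15 and Gbp7 one of 0.19 ± 0.23, and neither passed.

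Of the ISG15 system, 1 of 2 tested members rose. Usp18, which removes ISG15 from proteins and damps signalling at the type I receptor, gave 764.7, 804.8, 410, 476.1 and 782.8 in wild-type and 1061.9, 805.4, 925.7, 1124.3 and 851.2 in transgenic livers. The lowest transgenic value, 805.4, lay next to the highest wild-type value, 804.8, and the groups were otherwise apart. Usp18 rose by 0.59 ± 0.18 (adjusted p = 0.0174), a call lost without wild-type replicate 3 (0.44, adjusted p = 0.0804) or 4 (0.49, adjusted p = 0.0647) and after quantile normalization (0.45, adjusted p = 0.0634). Herc6, the main ISG15 ligase of the mouse, had a change of -0.068 ± 0.13.

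Of the antigen processing genes, 1 of 3 rose. Tap1, a subunit of the transporter that brings peptides to MHC class I, gave 302.3, 291, 301.4, 329.7 and 389.7 in wild-type and 696.2, 485.3, 644.2, 470.3 and 594.8 in transgenic livers. The groups did not overlap, and Tap1 rose 1.74-fold (log2 0.80 ± 0.17, adjusted p = 0.000718). The immunoproteasome subunit Psmb8 gave 599.2, 803.2, 1297.7, 1342.5 and 1096 in wild-type and 1696.6, 980.3, 1325.1, 1121.3 and 1344 in transgenic livers, with broad overlap (log2 0.36 ± 0.20, adjusted p = 0.196). Psmb9, another subunit, stood at 0.32 ± 0.23, adjusted p = 0.327.

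Neither chemokine passed. Cxcl9, which draws T cells through CXCR3 and is induced by interferon gamma, gave 798.8, 1252, 498.3, 658.7 and 797.3 in wild-type and 1745.6, 571.3, 2017.3, 874.7 and 1260.1 in transgenic livers (log2 0.61 ± 0.33, adjusted p = 0.187). Cxcl10, a ligand of the same receptor, gave 222.8, 319.4, 137.4, 207.7 and 276.4 in wild-type and 410, 256, 367.2, 375.5 and 315.7 in transgenic livers (log2 0.57 ± 0.32, adjusted p = 0.202). For both chemokines transgenic replicate 2 was the lowest of its group and lay inside the wild-type range.

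None of the 4 transcription factors and 3 sensors passed at week 20 in the limma test, under which 11 of the 33 members had an unadjusted p under 0.05, against 35.4% of all genes. Irf7, the amplifier of type I interferon production, gave 763.6, 1347.1, 973.5, 1511 and 860.9 in wild-type and 1304.1, 1077.7, 1710.5, 815.8 and 1154.2 in transgenic livers, largely overlapping (log2 0.16 ± 0.19, adjusted p = 0.597). Irf1, a factor of the gamma response, stood at 0.30 ± 0.15, and Stat2 and Irf9, both parts of the type I complex, at 0.17 ± 0.20 and -0.049 ± 0.16. Among the sensors, the RNA helicase Ifih1 (MDA5) stood at 0.15 ± 0.12, its regulator Dhx58 (LGP2) at -0.19 ± 0.19 and Zbp1, a sensor of Z-form nucleic acid, at -0.35 ± 0.23.

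**Figure D2:**
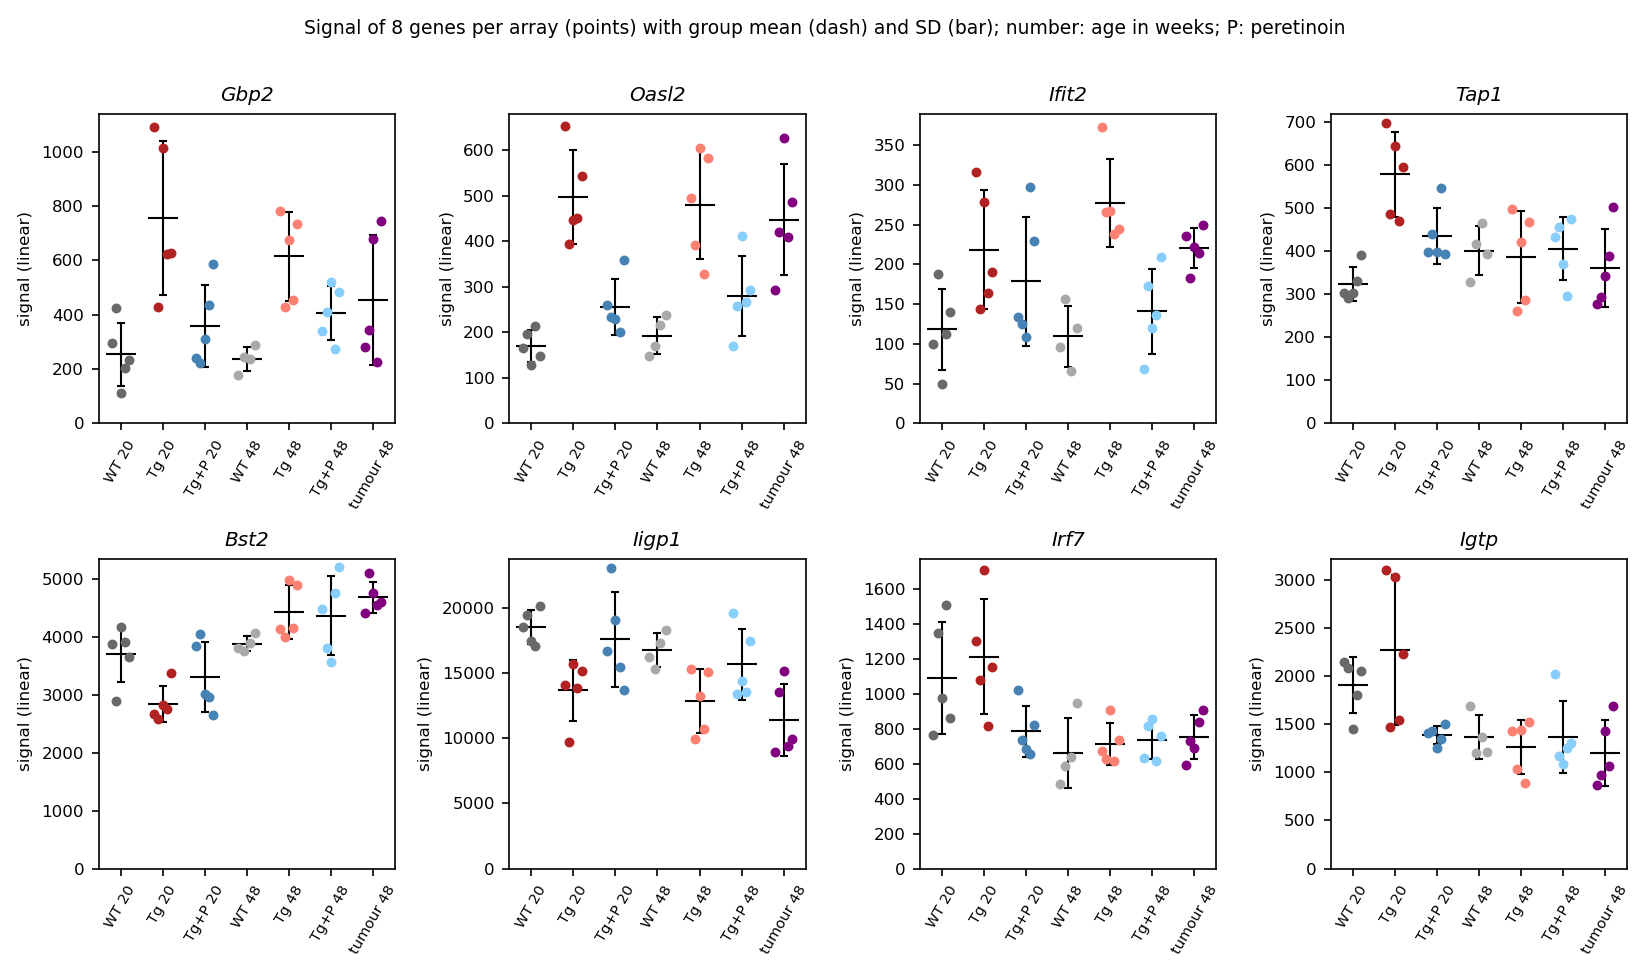
Signals of 8 members on every array, with the mean and SD of each of the 7 groups (n = 4 in wild-type liver at week 48, n = 5 elsewhere). Oasl2 and Gbp2 stand above the wild type in transgenic liver at both ages, Tap1 at week 20, and Iigp1 is lower in all week 20 transgenic livers than in the wild type.

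In all, the groups did not overlap for 5 members at week 20: Oasl2, Gbp2, Tap1 and Usp18 were higher in every transgenic liver (11.5% of all genes) and Iigp1 lower (4.65% of all genes). Centring each array on its median moved the median of all genes to -0.068 and that of the members to 0.069, with 6 members higher and 4 lower, and quantile normalization gave 3 higher and 3 lower. Over all 13099 genes, centring called 1419 higher and 1619 lower, and quantile normalization 1523 and 1262. The share of higher calls among all genes was 66.8% as reported, 54.7% after quantile normalization and 46.7% after median centring. Under all 45 alternatives Oasl2, Gbp2, Tap1 and Bst2 kept their calls, Bst2 with an adjusted p up to 0.049 in the limma test. Without wild-type replicate 3 the total was 6, 3 of them higher.

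Other cell types differed between these groups too. Of 9 tested markers of recruited monocytes and macrophages 8 rose, Cx3cr1 by 3.27 (adjusted p = 7.77e-08) and Itgax by 1.91 (adjusted p = 4.67e-07) among them, and their summed signal was 842 to 2000 in wild-type livers and 3298 to 3961 in transgenic ones. Of 8 Kupffer cell markers 5 fell, with log2 changes of -3.53 for Cd163 (adjusted p = 2e-07) and -2.29 for Timd4 (adjusted p = 9.4e-05), and sums of 16628 to 22790 and 6966 to 10189. Of 7 tested T and NK cell markers 4 rose, with sums of 375 to 703 and 701 to 1395, and the markers Cd4 and Ncr1 were under the filter. Plasmacytoid dendritic cells, known for making much type I interferon, had 1 of 4 tested markers higher, Tcf4, and the defining marker Siglech was 124 ± 19.9 in wild-type and 88.6 ± 26.5 in transgenic liver (SD, n = 5 each). Stellate cell markers rose in 6 of 9 cases, B and plasma cell markers in 2 of 6 and conventional dendritic cell markers in 1 of 4, 1 of 7 endothelial markers fell, and 0 of 5 neutrophil markers passed. Hepatocyte markers fell in 3 of 8 cases, with sums of 191414 to 233006 and 147524 to 200255. The 3' to 5' ratio of Actb, a measure of RNA integrity, was 1.81 to 2.16 in wild-type livers and 1.62 to 1.74 in transgenic ones. The part of these cell types and of RNA integrity in the members' changes was not tested. Without the arrays with muscle or acinar transcripts the same 10 members were called.

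Transgenic liver at week 48, the tumour stage, again showed members that rose, and none that fell. The 6 were Oasl2, Ifit2, Xaf1 and Parp14 among 12 tested effectors, Gbp2 among 7 GTPases, and the sensor Zbp1. This is 18.2% of the 33 members, against 20.8% of all genes (14.2% higher and 6.58% lower), a share near the background. The members' median log2 change was 0.31 against 0.036 for all genes, with 24 of 33 above 0 against 53.7% of all genes.

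Xaf1 gave 404.9, 358.1, 408 and 477.5 in wild-type livers and 732.4, 678.5, 976.7, 695.1 and 966.3 in transgenic livers. All transgenic livers exceeded all wild-type livers, and Xaf1 rose 1.91-fold (log2 0.94 ± 0.16, adjusted p = 8.39e-05), although a second, dim Xaf1 probe set stood at -0.15 (adjusted p = 0.75). Oasl2 gave 147.6, 169.7, 215.8 and 237.1 in wild-type and 494.5, 392.2, 605.3, 328.8 and 583.1 in transgenic livers, again without overlap, and rose 2.36-fold (log2 1.24 ± 0.22, adjusted p = 0.000108). Ifit2 gave 96.5, 156.4, 65.7 and 120.6 in wild-type and 373.4, 265.4, 267.2, 237.7 and 244.3 in transgenic livers. The groups were apart for Ifit2 as well, with transgenic replicate 1 above the other 4 transgenic livers, and it rose by 1.26 ± 0.30 (adjusted p = 0.00245). The 5 transgenic livers were also above the wild type for Gbp2, at 780, 427.5, 676.1, 453.1 and 734.1 against 176.9, 245.7, 237.2 and 288, and it rose 2.45-fold (log2 1.29 ± 0.34, adjusted p = 0.00567).

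Parp14 gave 391.2, 453.2, 451.5 and 524.8 in wild-type and 687, 668.4, 786.6, 469.2 and 818.4 in transgenic livers. Only transgenic replicate 4 reached into the wild-type range, and Parp14 rose by 0.56 ± 0.17 (adjusted p = 0.015), a call lost without wild-type replicate 1 (0.49, adjusted p = 0.0585). Zbp1 gave 143.9, 199.3, 167.9 and 186.6 in wild-type and 343.7, 230.7, 321.7, 239.7 and 348.9 in transgenic livers. These ranges did not overlap, and Zbp1 rose by 0.71 ± 0.24 (adjusted p = 0.0364), with 1.41 (adjusted p = 0.0305) on a second probe set. The Zbp1 call was lost without 6 of the 9 arrays compared, left out in turn: without wild-type replicates 1, 3 or 4 or transgenic replicates 1, 3 or 5 the change was 0.62 to 0.74, with adjusted p between 0.0519 and 0.107. With the replicate number as a block Zbp1 stood at 0.62 (adjusted p = 0.0525), after quantile normalization at 0.61 (adjusted p = 0.067) and with no filter on low signal at 0.71 (adjusted p = 0.0521), also without a call.

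The remaining panel genes did not pass at week 48. Usp18 gave 393.5, 452.8, 445.8 and 436.9 in wild-type and 771.8, 499.1, 680, 445.1 and 679 in transgenic livers (log2 0.47 ± 0.19, adjusted p = 0.085), with transgenic replicate 4 inside the wild-type range. Cxcl9 gave 488.8, 565.3, 989.7 and 543.5 and 1270.2, 750.3, 1870.8, 670.7 and 1513.8 in the same order (0.84 ± 0.35, adjusted p = 0.0847). Cxcl10 gave 172.3, 170.8, 170.3 and 243 and 289.1, 276.4, 436.6, 143.9 and 328.3 (0.54 ± 0.34, adjusted p = 0.275). In both chemokines transgenic replicate 4, an array with muscle and acinar transcripts, was the lowest of its group. Tap1 gave 328.3, 416.4, 465.6 and 393.2 and 496.4, 260.7, 421.1, 286.8 and 466.1 (-0.085 ± 0.18, adjusted p = 0.784), and transgenic livers lay on both sides of the wild type.

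Psmb8 gave 1088.6, 987.4, 1065.2 and 1224.7 in wild-type and 1423.3, 1067.6, 1296.1, 1128.3 and 1657.9 in transgenic livers at week 48 (log2 0.25 ± 0.21, adjusted p = 0.439). Irf7 gave 482, 584.1, 635.7 and 948.8 and 672.8, 628.8, 908.6, 614.8 and 733.4 (0.13 ± 0.20, adjusted p = 0.698), with the highest value in wild-type replicate 4. The ranges of both genes overlapped. Ifit1 gave 257, 265.4, 232.8 and 155 and 152.1, 160, 301.4, 198.3 and 375.1 (0.002 ± 0.21, adjusted p = 0.995), and Igtp gave 1692.8, 1204, 1370.1 and 1206.7 and 1427, 1037.5, 1438.1, 887.4 and 1519.1 (-0.13 ± 0.21, adjusted p = 0.712). Neither Ifit1 nor Igtp separated the genotypes. Iigp1 again lay lower in every transgenic liver, at 15318.8, 9957.7, 13227.6, 10689.7 and 15103.1 against 16244.2, 15341.1, 17335.8 and 18318.5, but the change of -0.40 ± 0.16 missed the threshold (adjusted p = 0.075). Herc6 stood at 0.36 ± 0.14, adjusted p = 0.0592, while 2 of its other probe sets passed (0.53 and 0.85, adjusted p = 0.0215 and 0.00473) and 1 did not (0.62, adjusted p = 0.104). Cmpk2 stood at 0.64 ± 0.29, adjusted p = 0.114, with 0.83 (adjusted p = 0.0395) on another probe set.

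At week 48 the groups did not overlap for 7 members that were higher, Xaf1, Oasl2, Ifit2, Gbp2, Zbp1, Herc6 and Mx1, and 2 that were lower, Iigp1 and Irgm1, against 13.9% and 7.54% of all genes. With each array centred on its median, the median change of all genes was 0.117 in place of 0.036, and that of the members 0.387 in place of 0.31. Centring gave 9 members higher and 0 lower, and 84.5% of calls over all genes were then higher, against 68.3% as reported. Of all 13099 genes, centring called 2234 higher and 410 lower. All 9 tested monocyte and macrophage markers rose, with sums of 1087 to 1491 in wild-type livers and 5507 to 7362 in transgenic ones. T and NK cell markers rose in 4 of 7, with sums of 416 to 792 and 752 to 1554. Kupffer cell markers fell in 1 of 8, Cd163, with overlapping sums of 12162 to 19668 and 11421 to 30909. Of 9 stellate cell markers 6 rose, with sums of 3649 to 9676 in wild-type livers and 13783 to 22108 in transgenic ones, and hepatocyte markers fell in 4 of 8, with sums of 183095 to 227516 and 157743 to 178008. Neutrophil markers rose in 3 of 5, with overlapping sums of 406 to 1855 and 1735 to 16766. The Actb ratio was 1.39 to 1.71 in wild-type livers and 1.30 to 1.57 in transgenic ones. The part of these cells and of RNA integrity in the result was not tested. The 6 calls were the same without the arrays with muscle or acinar transcripts.

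**Figure D3:**
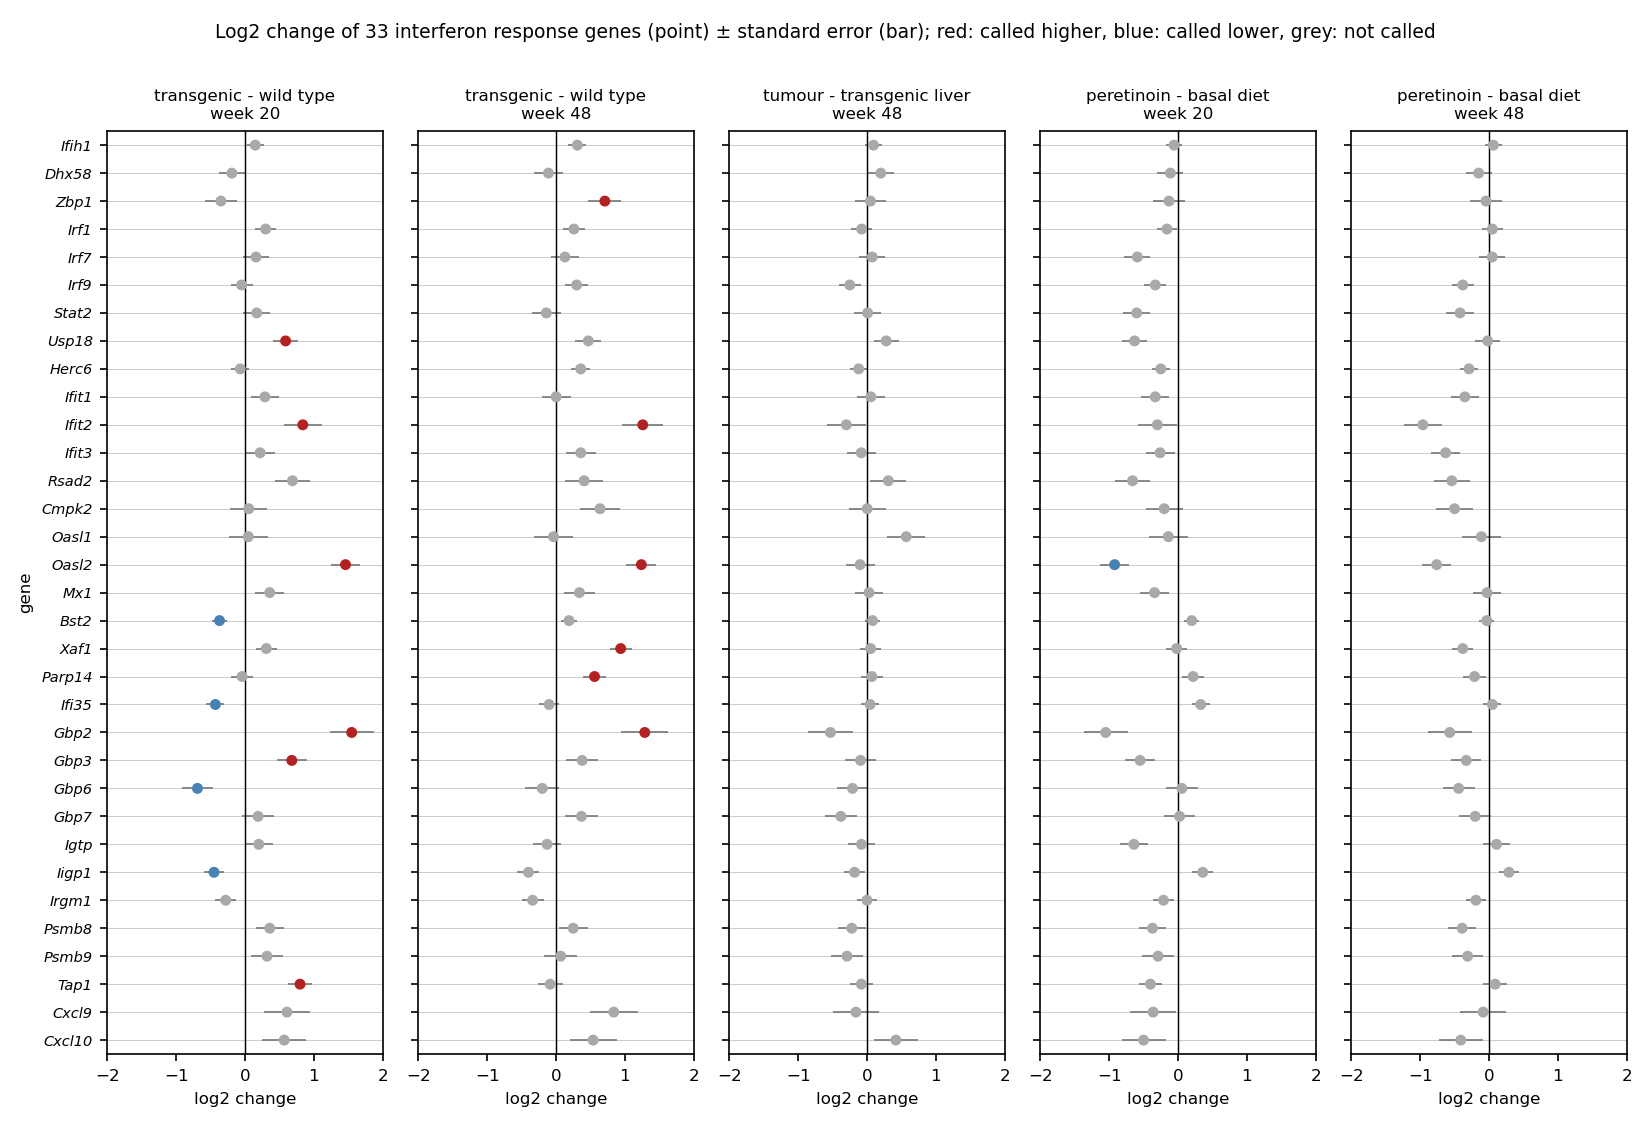
Log2 changes with standard errors of the 33 tested members in the 5 main comparisons, on the log2(signal + 16) scale. Red and blue mark members that passed the limma test as higher or lower and grey those that did not; 10 passed in transgenic liver at week 20, 6 at week 48, 0 in tumours, and 1 and 0 with peretinoin at weeks 20 and 48.

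Gbp2, Ifit2 and Oasl2 rose at both ages. Gbp3, Tap1 and Usp18 passed only in the week 20 test and Parp14, Xaf1 and Zbp1 only in the week 48 test, but the change in the transgene effect from week 20 to week 48 was called by limma for none of the 33 members (0.275% of all genes were called). An unadjusted p under 0.05 was reached by 6 members, against 13.2% of all genes. The smallest p belonged to Tap1, whose effect at week 48 minus that at week 20 was -0.89 ± 0.25 (95% interval -1.39 to -0.38, adjusted p = 0.126). For Bst2 the difference was 0.56 ± 0.17 (0.22 to 0.90, adjusted p = 0.149), and for Zbp1 it was 1.06 ± 0.33 (0.38 to 1.74, adjusted p = 0.177). These intervals exclude 0 only without adjustment. Median centring shifted the median of all genes in this difference from -0.015 to 0.193 and the members' median from -0.024 to 0.185.

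The effect of age was then read within each genotype. These 2 tests compare separate arrays but take their spread from the same fit to all 34 arrays. The arrays are also those of the genotype comparisons. A member with high values on the week 20 transgenic arrays thus stands high there and lower in the change with age. From week 20 to week 48 in wild-type liver, 1 of 33 members (3.03%) passed, against 6.88% of all genes (2.41% higher and 4.47% lower). It was Irf7, at 763.6, 1347.1, 973.5, 1511 and 860.9 at week 20 and 482, 584.1, 635.7 and 948.8 at week 48. The ranges overlapped through wild-type replicate 4 at week 48, and Irf7 fell by 0.70 on the log2 scale (SE 0.20, adjusted p = 0.0306). This call was lost without replicates 2 or 4 of week 20 or replicates 1, 2 or 3 of week 48, with changes from -0.70 to -0.57 and adjusted p from 0.0695 to 0.119, and with only the arrays compared in the fit (adjusted p = 0.123). Probe sets other than the ones used passed for 2 more members, with Ifi35 at -0.88 (adjusted p = 8.69e-05, against -0.28 ± 0.14 for the one used) and Stat2 at 0.73 (adjusted p = 0.0245, against 0.45 ± 0.21). The difference in the effect of age between genotypes is the same contrast as the change in the transgene effect given above, in which no member passed.

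In transgenic liver 7 members (21.2%) passed for age, against 15.7% of all genes (5.99% higher and 9.76% lower): Bst2 and Herc6 rose, and Ifit1, Igtp, Irf7, Usp18 and Tap1 fell. Bst2 rose from 2845 ± 313 to 4440 ± 466 (mean signal ± SD, n = 5 each; log2 0.64 ± 0.11, adjusted p = 0.000384), and its lowest week 48 liver, at 4009, lay above the highest at week 20, at 3378.9. Herc6 likewise rose without overlap, from 369 ± 50.9 to 535 ± 84.3 (0.52 ± 0.13, adjusted p = 0.00677), while its 3 other probe sets gave 0.21, 0.45 and 0.53 without passing (adjusted p = 0.367, 0.117 and 0.145). Ifit1 had a change of -0.87 ± 0.20 (adjusted p = 0.00344), Igtp of -0.80 ± 0.20 (adjusted p = 0.0065) and Irf7 of -0.73 ± 0.19 (adjusted p = 0.00843), each with overlapping ranges. Usp18 fell from 954 ± 136 to 615 ± 137 without overlap (-0.64 ± 0.18, adjusted p = 0.0155). Tap1 fell from 578 ± 98.5 to 386 ± 107 (-0.59 ± 0.17, adjusted p = 0.0159). The Ifi35 probe set that passed in wild-type liver passed here too, at -0.90 (adjusted p = 1.01e-05), against 0.054 ± 0.13 for the one used and -0.096 (adjusted p = 0.711) for the third.

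Of these 7 calls, those of Usp18 and Tap1 were lost under some alternatives. Usp18 missed without week 48 replicate 4 (-0.53, adjusted p = 0.0573) and without the arrays with muscle or acinar transcripts (-0.57, adjusted p = 0.0695). Tap1 missed without week 20 replicate 1 or week 48 replicates 2 or 4 (-0.52, -0.47 and -0.50, adjusted p = 0.0526, 0.064 and 0.0563) and without the muscle and acinar arrays (-0.48, adjusted p = 0.108), and after median centring (-0.47, adjusted p = 0.0579). Centring each array on its median took the all-gene median from -0.043 to 0.08, that of the members from -0.007 to 0.116, the members' calls to 5 higher and 4 lower, and the share of higher calls among all genes from 38.1% to 68.7%. Of all 13099 genes, 1199 were then called higher and 547 lower. In wild-type liver centring moved the share of higher calls among all genes from 35.1% to 17.7%. The Actb ratio was lower at week 48 than at week 20 in both genotypes, at 1.81 to 2.16 and 1.39 to 1.71 in wild-type livers and 1.62 to 1.74 and 1.30 to 1.57 in transgenic ones, and 4 of 8 Kupffer cell markers rose with age in transgenic liver. Their part in these changes was not tested.

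**Figure D4:**
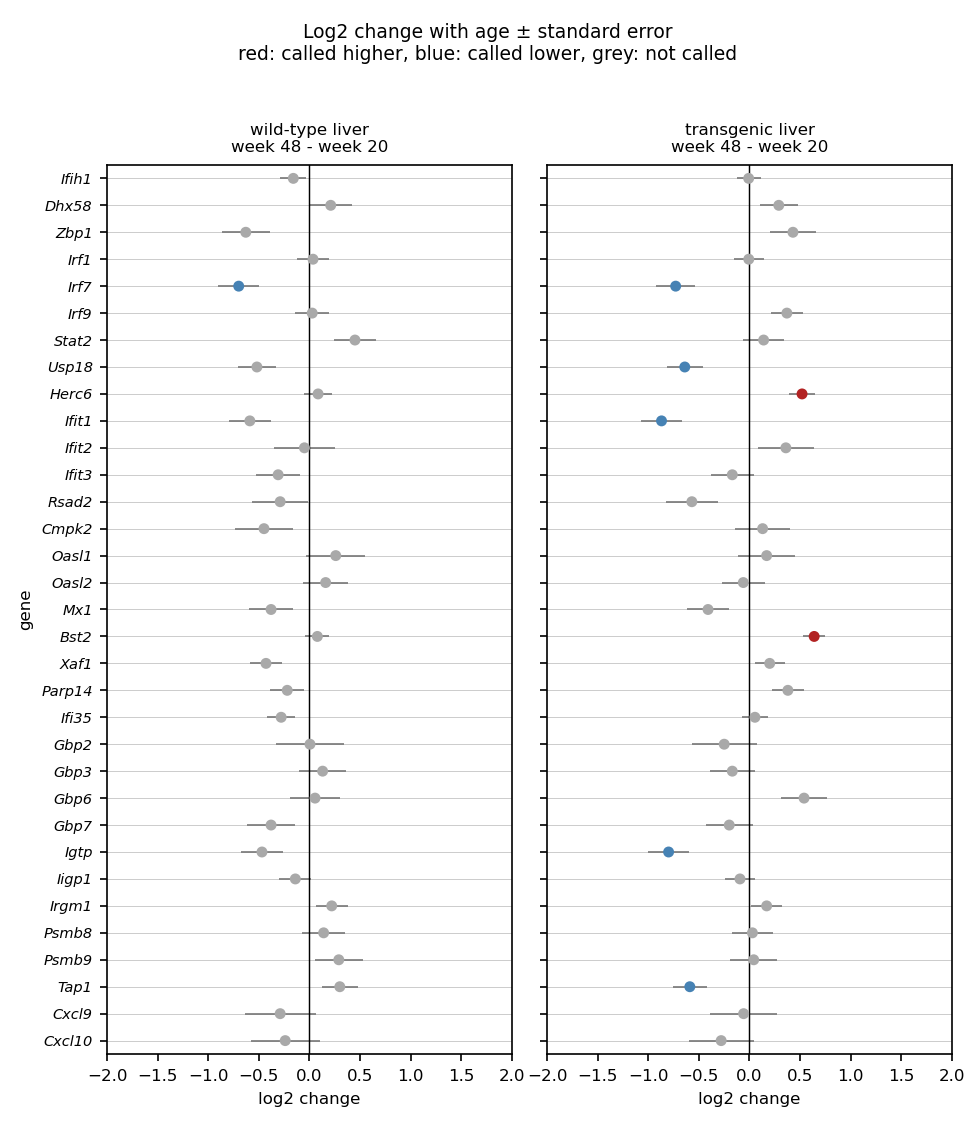
Log2 changes with standard errors of the members from week 20 to week 48, with wild-type liver on the left and transgenic liver on the right, on the log2(signal + 16) scale. Red and blue mark members that passed the limma test as higher or lower, 1 in wild-type liver and 7 in transgenic liver, and grey those that did not.

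Tumours were set against transgenic livers of the same age, which also serve as the reference of the week 48 comparisons of genotype and diet. None of the 33 members, and none of the 13099 genes (0%), passed limma's test. The members' median log2 change was 0 against 0.008 for all genes, 16 lay above 0 and 17 below, and no member's groups were apart (1.02% of all genes were higher and 0.97% lower without overlap). Just 1 member had an unadjusted p under 0.05, against 8.21% of all genes. It was Oasl1, at 1093.7, 537, 605.9, 807.2 and 825.9 in tumours and 352.2, 433.3, 538.8, 715 and 522.6 in livers (log2 0.57 ± 0.28, adjusted p = 0.595), with the highest tumour value in replicate 1.

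Gbp2 gave 282.4, 343.9, 679.8, 224.3 and 742.8 in tumours, so that replicates 3 and 5 lay within the liver range of 427.5 to 780 and the other 3 below it (log2 -0.53 ± 0.32, adjusted p = 0.737). Oasl2 gave 293.1, 421.5, 627.8, 409.1 and 487.2 in tumours, spread over the liver range (-0.10 ± 0.21, 95% interval -0.53 to 0.32, adjusted p = 0.963). Cxcl10 gave 219.5, 396, 473, 175.8 and 1018 (0.42 ± 0.32, adjusted p = 0.824), with tumour replicate 5 above all other arrays of the series. Tumour replicate 5 held the highest value of its group in 22 of the 34 members and tumour replicate 1 the lowest in 17, so that the tumours differed among themselves across the list.

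The other panel genes in tumours overlapped with liver in every case. Usp18 gave 686.2, 611.1, 945.4, 526.9 and 1038.7 (log2 0.28 ± 0.18), Cxcl9 699.3, 916.9, 1707.4, 506.8 and 1868 (-0.16 ± 0.33) and Irf7 590.3, 729.4, 688.6, 841.2 and 908.9 (0.076 ± 0.19). Tap1 gave 276.9, 292.8, 342.9, 388.6 and 501.7 (-0.082 ± 0.17), Psmb8 974.9, 814.1, 1161, 1067.9 and 1708.6 (-0.22 ± 0.20), Ifit1 153, 214.7, 277.2, 259 and 289.2 (0.057 ± 0.20) and Igtp 864.1, 969.7, 1431.8, 1070.2 and 1685.5 (-0.08 ± 0.20). Replicate 5 was the highest tumour for Usp18, Cxcl9, Irf7, Tap1, Psmb8, Ifit1 and Igtp alike.

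With peretinoin at week 20, most members stood below the basal diet, and 1 passed the test. The members' median log2 change was -0.29 against -0.016 for all genes. Of the 33 members 27 lay below 0, a larger share than among all genes, of which 47.7% lay above 0. On the probe sets used, all 3 sensors, 4 transcription factors, 3 antigen processing genes and both chemokines were below 0. Other probe sets of these genes were below 0 for Dhx58, Zbp1 and Stat2. For Cxcl9 and Psmb8 they were above 0, at 0.28 and 0.24, without passing. The 1 member called, Oasl2, is 3.03% of the 33, against 2.89% of all genes (1.64% higher and 1.24% lower), a share near the background, and the other members each missed the threshold. An unadjusted p under 0.05 in the limma test was reached by 12 of the 33 members, a larger share than the 19.5% of all genes. The basal-diet livers here are the transgenic arrays of the genotype comparison, so a member with high values on them stands high in one comparison and low in the other.

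Oasl2 gave 259.3, 234.7, 228.4, 199.9 and 358.8 in peretinoin livers, against 654, 393.3, 447, 450.4 and 542.6 in basal-diet livers. All peretinoin livers lay below all basal-diet livers, and Oasl2 fell by 0.92 on the log2 scale (SE 0.21, adjusted p = 0.016). Wild-type livers lay at 127.2 to 214.3, below all peretinoin livers but replicate 4. Oasl2 passed under 43 of 45 alternatives. The exceptions were the fits without basal-diet replicate 1 (-0.82, adjusted p = 0.0531) and without peretinoin replicate 2 (-0.90, adjusted p = 0.0562), and it passed without the arrays with muscle or acinar transcripts (adjusted p = 0.0104).

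Usp18 gave 585.5, 496.8, 721.2, 602 and 641.5 in peretinoin livers, all below the basal-diet range of 805.4 to 1124.3, and missed the threshold narrowly (log2 -0.63 ± 0.18, adjusted p = 0.0515). Gbp2 gave 239.8, 220.8, 310.3, 436.7 and 584.7, with replicates 4 and 5 inside the basal-diet range and the others below it (-1.05 ± 0.32, adjusted p = 0.0602), and its second probe set passed (-1.18, adjusted p = 0.0472). Igtp gave 1410.6, 1427.5, 1249.5, 1348.1 and 1505.6 (-0.64 ± 0.20, adjusted p = 0.0704). The Igtp values with peretinoin were close together, while those on the basal diet ran from 1476.4 to 3107.4. Irf7 gave 1024.2, 737.8, 686.5, 653.1 and 822.8 (-0.59 ± 0.19, adjusted p = 0.0734), and Stat2 had a change of -0.60 ± 0.20, adjusted p = 0.0827. Of the 45 alternatives, Usp18 passed in 16, Gbp2 in 5, Igtp in 3, and Irf7 and Rsad2 in 1 each.

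Other panel genes overlapped between the diets at week 20. Tap1 gave 397.8, 438.4, 397.6, 544.7 and 392 with peretinoin (log2 -0.40 ± 0.17, adjusted p = 0.183) and Psmb8 998.6, 904, 877.8, 1133.5 and 990.3 (-0.37 ± 0.20, adjusted p = 0.306). Ifit1 gave 343, 345.1, 363.1, 311.6 and 301.7 (-0.33 ± 0.20, adjusted p = 0.371). Cxcl10 gave 222.7, 160.4, 203.6, 249.8 and 392.1 (-0.50 ± 0.32, adjusted p = 0.395) and Cxcl9 1196.5, 959.1, 622.8, 944.6 and 915.9 (-0.36 ± 0.33, adjusted p = 0.584). Peretinoin replicate 5 was the highest of its group for Cxcl10 and lay within the basal-diet range. Members that had fallen with the transgene stood above 0 with peretinoin without passing, namely Iigp1 (0.36 ± 0.15), Ifi35 (0.33 ± 0.13), Bst2 (0.20 ± 0.11) and Gbp6 (0.057 ± 0.23). Rsad2 stood at -0.66 ± 0.26, adjusted p = 0.148, and its other probe sets passed, at -1.11 and -0.85 (adjusted p = 0.0444 and 0.0409). A second Herc6 probe set passed as well (-0.55, adjusted p = 0.0365), against -0.25 ± 0.13 for the one used.

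Groups were apart in the week 20 diet comparison for 2 members, Oasl2 and Usp18, both lower, against 2.96% of all genes. No marker list of another cell type had a called member. Sums of monocyte and macrophage markers were 3298 to 3961 on the basal diet and 2043 to 3513 with peretinoin, those of T and NK cells 701 to 1395 and 806 to 1034, and those of Kupffer cells 6966 to 10189 and 9317 to 12901. The Actb 3' to 5' ratio was 1.62 to 1.74 on the basal diet and 2.38 to 3.31 in peretinoin replicates 1 to 4, with 1.70 in replicate 5. Replicate 5, an array with muscle transcripts, was also the highest of the peretinoin livers for Oasl2, at 358.8. The part of RNA integrity and of these cells in the result was not tested. Without the arrays with muscle or acinar transcripts 3 members passed, Gbp2, Oasl2 and Usp18, all lower. Median centring gave 44.8% higher calls among all genes, against 56.9% as reported, and left the members' median at -0.278.

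With peretinoin at week 48 no member passed limma's test, against 0.725% of all genes. The members' median was -0.21 against -0.018 for all genes. By their median, all genes too lay more often below 0 than above it, but less far below than the members. Of the 33 members 26 lay below 0, and of the 12 effectors 11. An unadjusted p under 0.05 in the limma test was reached by 8 of the 33 members, a larger share than the 14% of all genes. Ifit2 gave 67.9, 172.5, 120, 136.4 and 209 with peretinoin and 373.4, 265.4, 267.2, 237.7 and 244.3 on the basal diet. It was the 1 member whose groups were apart (lower for 1.84% of all genes), with a change of -0.96 ± 0.28 (adjusted p = 0.101). Oasl2 gave 170.2, 257.7, 412.2, 266.4 and 292.1 (-0.76 ± 0.21, adjusted p = 0.0734), and peretinoin replicate 3 reached into the basal-diet range. It passed without basal-diet replicate 4 (-0.89, adjusted p = 0.0463) or peretinoin replicate 3 (-0.91, adjusted p = 0.0252). Ifit3, the third of the Ifit cluster, stood at -0.63 ± 0.21, adjusted p = 0.153.

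Among the other panel genes at week 48, Gbp2 gave 339.9, 410.5, 519.3, 274.8 and 482.4 with peretinoin (log2 -0.57 ± 0.32, adjusted p = 0.434) and Ifit1 170.4, 184.9, 169.8, 149.4 and 188 (-0.35 ± 0.20, adjusted p = 0.455). Psmb8 gave 1023.8, 850.3, 1070.2, 670.7 and 1499.4 (-0.39 ± 0.20, adjusted p = 0.394) and Cxcl10 148.7, 138.9, 271.8, 297 and 219.4 (-0.41 ± 0.32, adjusted p = 0.607). All 4 overlapped with the basal diet. Usp18 gave 528.5, 557.6, 525.4, 658.2 and 726.8 (-0.019 ± 0.18), Irf7 630.3, 816.8, 858.8, 612.9 and 756 (0.047 ± 0.19) and Cxcl9 869, 1005.7, 1194.8, 1110.9 and 1164.1 (-0.085 ± 0.33). Igtp gave 2026.5, 1169, 1086.8, 1251.9 and 1309.3 (0.11 ± 0.20) and Tap1 431.8, 454.5, 369.3, 294.8 and 473.4 (0.09 ± 0.17). For these last 5 genes the log2 changes lay within 0.11 of 0, and adjusted p lay between 0.853 and 0.977.

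Median centring moved the members' median at week 48 to -0.12, with 12 of 33 above 0 against 7 as reported, and the share of higher calls among all genes from 21.1% to 38.2%. Sums of monocyte and macrophage markers were 5507 to 7362 on the basal diet and 2644 to 6954 with peretinoin, and those of T and NK cells 752 to 1554 and 462 to 853, with Cd3g lower by 0.97 on the log2 scale (adjusted p = 0.0409). The Actb ratio was 1.30 to 1.57 and 1.42 to 1.94. Their part in the members' values was not tested. The peretinoin effect at week 48 minus that at week 20 was called by limma for none of the 33 members (0.679% of all genes), and 3 had an unadjusted p under 0.05, against 13.6% of all genes. These were Igtp (0.75 ± 0.28, adjusted p = 0.216), Irf7 (0.64 ± 0.27, adjusted p = 0.274) and Usp18 (0.61 ± 0.26, adjusted p = 0.277), each nearer to 0 at week 48 than at week 20.

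**Figure D5:**
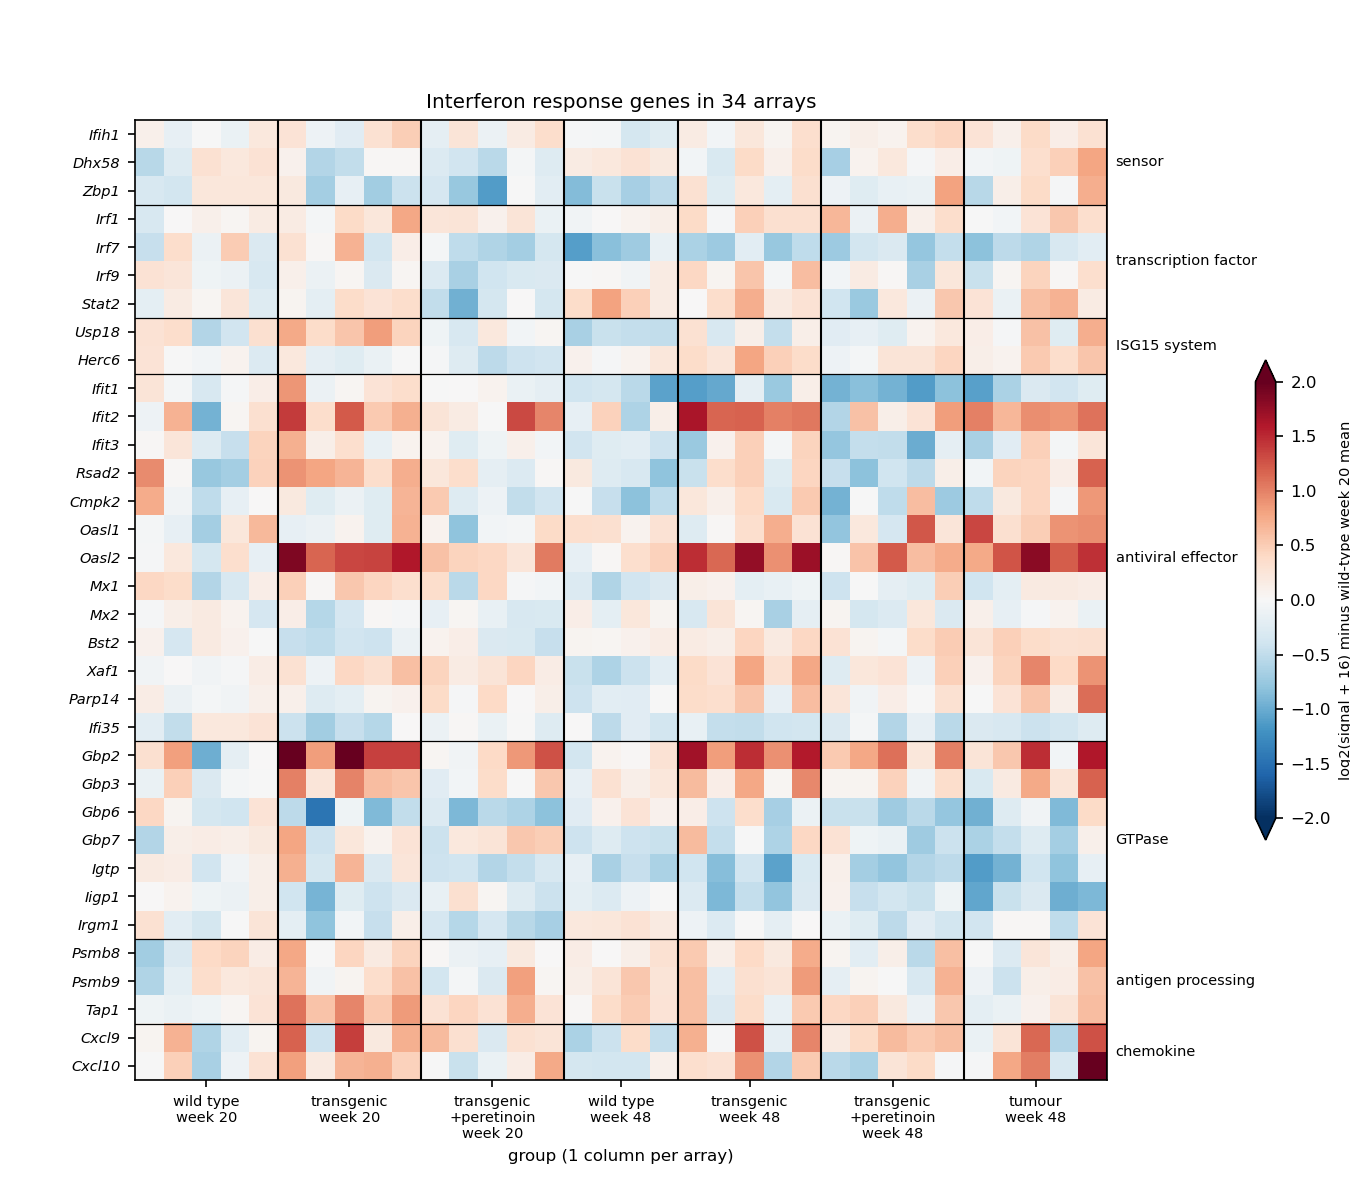
Heat map of the 34 measured members on the 34 arrays, as log2(signal + 16) minus the mean of wild-type liver at week 20. Transgenic replicate 1 at week 20 is the highest of its group in 19 members and replicate 2 the lowest in 25, and tumour replicate 5 is the highest of its group in 22.

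Single arrays carried much of the spread within groups. Among week 20 transgenic livers, replicate 1 held the highest value in 19 of 34 members and replicate 2 the lowest in 25, so the transgenic group was spread from high to low across the list as a whole. The median member on replicate 2 lay 0.12 below the wild-type mean on the log2 scale, while the median on replicates 1, 3, 4 and 5 lay 0.30, 0.28, 0.13 and 0.36 above it. Replicate 5 of this group carries acinar transcripts and replicates 1 to 4 do not. At week 48 the median member stood at 0.26, 0.044, 0.38, -0.15 and 0.39 in transgenic livers against the same reference, with replicate 4, the array with muscle and acinar transcripts, the lowest. In the peretinoin livers it stood between -0.12 and -0.012 at week 20 and between -0.12 and 0.28 at week 48.

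The rest of the interferon pathway was read from 87 other genes, of which 77 were measured and 71 tested. At week 20, 8 rose in transgenic liver and 2 fell (14.1%, against 23.7% of all genes), with a median of 0.17. Il10rb, the receptor chain shared by interferon lambda and interleukin 10, stood at 1.24 ± 0.16, adjusted p = 8.21e-07, Irf8, a factor of myeloid cells, at 1.32 ± 0.20, adjusted p = 1.08e-05, and the RNA receptor Tlr3 at 0.95 ± 0.16, adjusted p = 5.66e-05. The adaptor of DNA sensing, Sting1, stood at 1.35 ± 0.25, adjusted p = 0.000163 and the schlafen protein Slfn2 at 1.16 ± 0.26, adjusted p = 0.00116, while B2m, the light chain of MHC class I, fell by 0.31 (adjusted p = 0.00406). At week 48, 15 rose and 2 fell (23.9%, against 20.8%), with a median of 0.21. Il10rb (1.45 ± 0.17, adjusted p = 3.61e-07), Tlr3 (1.03 ± 0.17, adjusted p = 5.72e-05) and Irf8 (0.98 ± 0.22, adjusted p = 0.00119) were again among those that rose. Ifngr1, the ligand-binding chain of the interferon gamma receptor, rose by 0.94 ± 0.14, adjusted p = 8.43e-06. The immunoproteasome subunit Psmb10 (0.69 ± 0.15, adjusted p = 0.000816) and Ptpn2, a phosphatase that damps JAK and STAT signalling (0.71 ± 0.15, adjusted p = 0.000972), rose as well.

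With peretinoin 1 of the 71 pathway genes fell at week 20, Lgals3bp, a secreted glycoprotein (-0.72, adjusted p = 0.0465), and none passed limma's test at week 48 or in tumours. The medians with peretinoin were -0.12 and -0.10. Of 6 interferon genes listed, 5 were measured and only Ifna2 was bright enough to be tested, and it passed in none of the 5 main comparisons. Ifnb1, Ifna4, Ifna5 and Ifng had mean signals of 43.8, 12.4, 7.72 and 22.8 over the series, under the filter. Among these Ifng gave 15.6 ± 14.1 (SD, n = 5, 2.7 to 33.8) in week 20 wild-type livers and 44.1 ± 17.6 (23.2 to 70.6) in transgenic ones, dim and overlapping.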

How the data were processed

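The deposited table holds linear signal intensities of 45101 probe sets. The authors computed these intensities with MAS5 according to the submitters' processing notes; its version and any further step are not given in the sources used here. The platform's table paired 34945 of 45101 probe sets with 1 gene symbol, 932 with several and 9160 with none (64 were controls); 34741 matched the RefSeq gene table by Entrez ID. Signals were taken as log2(signal + 16), and the 60% of probe sets with the highest mean signal were kept. Per gene the brightest probe set with 1 symbol was used. A model with 7 groups and 1 spread was fitted to 34 arrays with limma 3.58.1 in R 4.3.3 (lmFit, contrasts, eBayes with an intensity trend) for 9 comparisons. Tests were two-sided, adjusted by Benjamini-Hochberg over 13099 genes in each comparison, and called at 0.05. The scripts were tested on simulated data. No array was left out, and no pair of arrays was identical (highest correlation 0.977).

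Every measured member was named. Values on every array were given for members called in a main comparison and for the measured genes of a panel of 11 (Isg15, which was not analysed, Irf7, Ifit1, Usp18, Oasl2, Cxcl9, Cxcl10, Gbp2, Igtp, Psmb8 and Tap1), at most 6 called genes came from the pathway list per comparison and 2 from a marker list. Other probe sets, stellate and dendritic cell counts and single arrays were added after the values were seen. The members and lists were chosen with earlier results of these data known, so no count over them is independent support. Alternatives were quantile normalization, median centring, offsets of 1 and 64, no filter or the upper 40% of probe sets, the mean of a gene's probe sets, only the arrays compared, no intensity trend, the replicate number as a block, no arrays with muscle or acinar transcripts, and each array left out in turn.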

Additional observations from a re-analysis of the deposited data

Results flagged for a closer look

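In 6 of the 238 sets of arrays formed by 34 members and 7 groups, the highest or lowest array stood apart from the rest by Dixon's criterion at the 95% level, which chance alone would meet in about 1 of 20 sets. Dhx58 was 106.1 on replicate 1 of the week 48 peretinoin group, an array with muscle transcripts, against 174.2 to 207.8 on the others. Zbp1 was 494.3 on replicate 5 of the same group against 231.8 to 256. Ifit2 was 373.4 on replicate 1 of the week 48 transgenic group against 237.7 to 267.2, and its week 48 call held without that array. Gbp7 was 469.5 on replicate 1 of the week 20 wild type against 776.7 to 816.3. Iigp1 was 9728.1 on replicate 2 of the week 20 transgenic group against 13833.7 to 15712, and its week 20 call was lost without that array (-0.33, adjusted p = 0.122). Cxcl10 was 243 on replicate 4 of the week 48 wild type, another array with muscle transcripts, against 170.3 to 172.3. The part of those transcripts in these values was not tested.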

How the results depend on the processing

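The calls of Oasl2, Bst2, Gbp2 and Tap1 at week 20, of Ifit2, Oasl2, Xaf1 and Gbp2 at week 48, and of Bst2, Herc6, Ifit1, Igtp and Irf7 with age in transgenic liver were kept under all 45 alternatives. Some were kept narrowly. The change of Xaf1 went down to 0.39 from 0.94, and its adjusted p in the limma test up to 0.0473. That of Herc6 with age went up to 0.046 and that of Bst2 at week 20 up to 0.049. The number of called members in transgenic liver at week 20 was 10 as reported and 6 after quantile normalization. With peretinoin at week 20 it was 1 as reported, 2 after median centring and with an offset of 64, and 3 with the upper 40% of probe sets, with only the arrays compared and without the arrays with muscle or acinar transcripts. With age in wild-type liver it was 1 as reported, 3 after median centring, 4 with the mean of a gene's probe sets and 0 with only the arrays compared. Leaving out 1 array gave 6 to 11 calls for the transgene at week 20, 4 to 8 at week 48, 0 to 3 with peretinoin at week 20, 0 to 1 at week 48, 0 to 2 with age in the wild type and 6 to 8 in transgenic mice, and 0 in tumours and both differences between ages. The members' median with age in wild-type liver was -0.227 after median centring, and in the difference of the transgene effect 0.185. The number of all 13099 genes called moved with the setting too. For the transgene at week 20, quantile normalization called 1523 higher and 1262 lower, against 2071 and 1031 as reported. With peretinoin at week 20, median centring called 73 higher and 90 lower, against 215 and 163. The cause of the differences between settings was not tested.

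In no comparison did the correlation of same-numbered samples pass 0.1 in every pair, the level set for treating them as paired, so the numbers were not used to pair samples. Tumours and livers came nearest, at 0.08 to 0.29 with 4 of 5 pairs over 0.1, and whether they share mice is not given. The replicate block fits an effect per replicate number that is shared by all 7 groups. It does not pair a tumour with a liver, and 0 members passed there with it. With the replicate block, 3 members passed with peretinoin at week 20 in place of 1, 11 in place of 10 for the transgene at week 20 and 5 in place of 6 at week 48. The arrays that correlated best with their own number were 1 of 5 and 3 of 4 for the transgene at weeks 20 and 48, 4 of 5 for tumours, and 0 of 5 and 2 of 5 for peretinoin.

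Signs were followed for called members and the panel, and under the alternatives they turned only for uncalled changes near 0. Single other probe sets did stand opposite to a call, for Gbp6 at week 20 (0.058 against -0.69) and Xaf1 at week 48 (-0.15 against 0.94). For the transgene at week 48, Ifit1 stood at -0.09 after quantile normalization, 0.00 with an offset of 1, -0.05 with the replicate block and -0.12 without the muscle and acinar arrays, where Tap1 stood at 0.00. With peretinoin at week 48, Usp18 stood at 0.02 after quantile normalization and 0.08 after median centring, Cxcl9 at 0.01 after median centring, and Igtp at -0.16 and Tap1 at -0.03 without the muscle and acinar arrays. Leaving out 1 array gave ranges across 0 of 0.00 to 0.31 (Irf7), -0.17 to 0.13 (Ifit1) and -0.18 to 0.04 (Tap1) for the transgene at week 48. In tumours they were -0.07 to 0.23 (Ifit1), -0.23 to 0.03 (Oasl2), -0.38 to 0.09 (Cxcl9), -0.21 to 0.03 (Igtp) and -0.21 to 0.02 (Tap1), and with peretinoin at week 48 -0.01 to 0.14 (Irf7), -0.13 to 0.07 (Usp18), -0.27 to 0.10 (Cxcl9), -0.04 to 0.18 (Igtp) and -0.03 to 0.19 (Tap1).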
